A study of Mus musculus with 6 samples.

Results

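The genes described here are the mouse SMAD family and the SKI repressors that bind SMAD proteins. They were chosen by gene name as Smad1, Smad2, Smad3, Smad4, Smad5, Smad6, Smad7, Smad9, Ski and Skil, by a rule that names genes and uses no values, written when earlier results of these data were known. All 10 were found, each listed once, among the 54532 genes of the deposited expression table. RNA was sequenced from primary ventricular cardiomyocytes of C57BL/6J mice that were 1 day old. In 3 libraries the cells carried short hairpin RNA against Gdf11 (shGDF11), a ligand of the TGF-beta superfamily. In the other 3 libraries they carried control hairpin RNA, named sh-nc in the sample labels and sh-Vector in the treatment protocol. Both groups received their hairpin at a multiplicity of infection of 200 and were collected 48 h later. The labels number the libraries of each group from 1 to 3 without saying whether a number marks a culture, a hairpin or something else. Nothing in them places the libraries in separate cultures. The p-values therefore measure only the spread between these libraries, which may be technical. In bulk RNA, fewer cells of a type and less RNA per cell cannot be told apart.

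SMAD proteins carry signals from the receptors of TGF-beta, activin, GDF and BMP ligands to the nucleus. An activated receptor phosphorylates a receptor-regulated SMAD at its tail, the phosphorylated SMAD joins Smad4, and the complex binds DNA and regulates genes. Smad2 and Smad3 serve the TGF-beta, activin and GDF11 branch, Smad1, Smad5 and Smad9 serve the BMP branch, and Smad6 and Smad7 are inhibitors whose genes are themselves induced by the signal. Ski and its relative Skil (SnoN) are co-repressors that bind Smad2, Smad3 and Smad4 on target genes, and Skil is also a known target gene of the pathway. In the heart these genes are known for roles in valve and septum formation, in fibrosis and in growth of the muscle cells.

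The split of the family by role can be read at the ends of the coding sequences, which are shown because they separate the receptor-regulated SMADs from the rest. The receptor phosphorylates the last serines of a Ser-Ser-x-Ser tail. Codons for such a tail ended the coding sequence of all 5 receptor-regulated SMADs, and of none of Smad4, Smad6, Smad7, Ski and Skil. Below are the last 30 coding bases, stop codon included, of 4 receptor-regulated members and of Smad6, from the GENCODE M21 transcripts on GRCm38, with the serine codons of the tail in capitals. They lie at chr9:63650262-63650291 for Smad3, chr8:79339649-79339678 for Smad1 and chr9:63953524-63953553 for Smad6, all on the minus strand. The end of Smad5 lies at chr13:56737449-56737478 and that of Smad9 at chr3:54797472-54797501, both on the plus strand. Smad6 has no such codons.
Smad3: ccgagcatccgctgtTCCAGTgtgTCTtag
Smad1: ccccacaatcctattTCATCCgtgTCTtaa
Smad5: ccgctgaaccccattTCTTCTgttTCAtag
Smad9: ccacacaaccctatcTCTTCAgtgTCTtaa
Smad6: ctggagatcctactcaacaaccacagatag

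The members are related enough that misassigned reads had to be considered. Aligned coding bases were identical at 78.2% of positions between Smad1 and Smad9, the most alike of the pairs aligned. The share was 77.2% between Smad1 and Smad5 and 77.1% between Smad2 and Smad3. It was 74.9% between Smad5 and Smad9, 68.7% between Smad6 and Smad7 and 62.1% between Ski and Skil. No pair of members shared an exact run of 75 bases, a length set for this search, in its transcripts. Other genes were not compared, and misassignment of reads was not tested. Reads on all listed genes came to 15267083 to 16152910 in a library, and each member held between 96 reads (Smad9, shGDF11 replicate 2) and 2549 reads (Ski, shGDF11 replicate 3) in a library. Gdf11 itself, the targeted gene, stood at 2.76, 2.30 and 2.31 FPKM (reads per unit of gene length and of library depth) in control replicates 1 to 3 and at 0.614, 0.601 and 0.778 FPKM in the shGDF11 replicates. Control replicate 1 stood apart from the other 2 controls: its read counts differed from theirs by a chi-square of 15.1 and 20.3 per degree of freedom, against 5.85 between controls 2 and 3 and 3.64 to 4.23 among the shGDF11 libraries. The share of reads on ribosomal RNA genes was 0.298% to 0.319% in control and 0.47% to 0.502% in shGDF11 libraries. Its part in the results was not tested.

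Of the 10 members, Smad7 and Skil fell and none rose. The count of 2 members lower compares with 13.1% of all 15418 genes tested, the 0 higher with 14.4%, and the 20% called in either direction with 27.6%. A gene was called at a limma adjusted p under 0.05 over all genes tested. All 10 members passed the filter of a mean of at least 0.5 FPKM. The members' median log2 fold change, shGDF11 minus control on the scale log2(FPKM + 0.5), was -0.09, against 0.01 for all genes tested. In 5 members (Smad3, Smad1, Smad9, Smad7 and Skil) no control value lay within the range of the shGDF11 values or the reverse, which also held for 45.8% of all genes tested. By an exact two-sided permutation test on its values, none of the 10 can reach a p below 0.1 with 3 libraries against 3, and these 5 reached it.

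**Figure D1:**
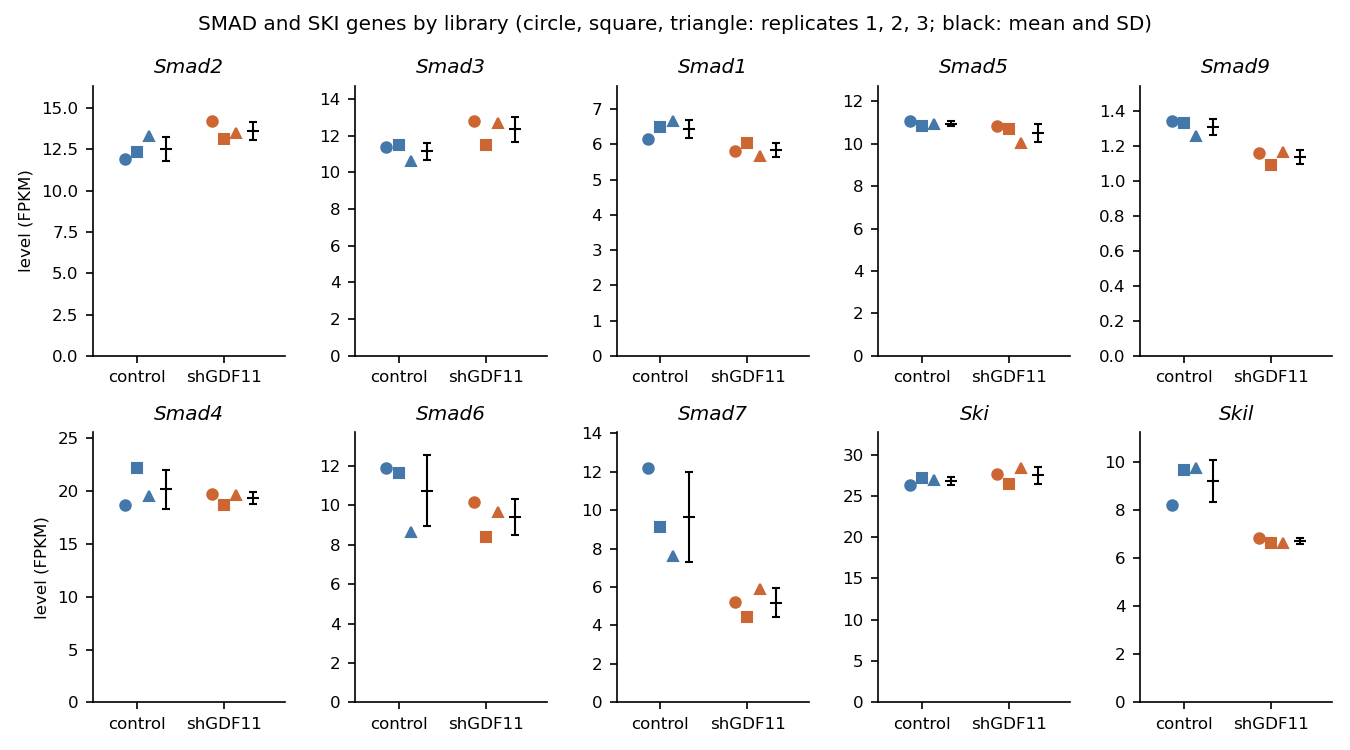
Level of each SMAD and SKI gene in FPKM, from 0, in the 3 control (blue) and 3 shGDF11 (orange) libraries, with each group's mean and SD in black. Smad7 and Skil lie lower in every shGDF11 library than in any control, while Smad4 and Ski overlap between the groups.

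Smad7, the inhibitor that blocks type I receptors and recruits ubiquitin ligases to them, stood at 12.2, 9.13 and 7.61 FPKM in control replicates 1, 2 and 3, from 867, 688 and 561 reads. In the shGDF11 replicates it stood at 5.22, 4.44 and 5.91 FPKM, from 388, 329 and 431 reads. Every shGDF11 library lay below every control, and the controls themselves were spread widely, with the highest 1.60 times the lowest. The mean fell to 53.8% of control, a log2 fold change of -0.82 ± 0.174 (SE, 95% interval -1.23 to -0.41, limma adjusted p = 0.0145). Its coefficient of variation, 24.3% in control and 14.1% in shGDF11, was the highest of the 10 members in both groups. Without control replicate 1, the library in which it was highest, the change was -0.64 (limma adjusted p = 0.0184). Without shGDF11 replicate 2, in which it was lowest, the change was -0.72 and was not called (limma adjusted p = 0.0557). Smad7 lies on chromosome 18 at 75367529 to 75395935, plus strand. Gm20544, a transcript on the opposite strand 441 bases away, was at 4.88 FPKM in control and 4.03 FPKM in shGDF11 and was not called (log2 fold change -0.27, limma adjusted p = 0.468).

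Smad6, the inhibitor that acts mainly on BMP signalling, was at 11.9, 11.7 and 8.66 FPKM in control replicates 1 to 3 and at 10.2, 8.38 and 9.65 FPKM in the shGDF11 replicates. The groups overlapped, since the lowest control lay below 2 of the 3 shGDF11 libraries. The log2 fold change was -0.17 (95% interval -0.49 to 0.14, limma adjusted p = 0.371), and its sign turned once trends with gene length and GC content were removed. Both inhibitors were lowest in replicate 3 among the controls and in replicate 2 among the shGDF11 libraries. The ratio of Smad7 to Smad6 was 1.02, 0.783 and 0.878 in control and 0.513, 0.530 and 0.612 in shGDF11, so that Smad7 was the lower of the pair in every library but control replicate 1. The ratio is not affected by how the libraries are scaled. Its mean was 0.895 ± 0.122 in control and 0.552 ± 0.0530 in shGDF11 (SD, n = 3 each), and the groups did not overlap, as for Smad7 alone.

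The start of Smad6 is shown because it alone among the members' promoter windows holds GTCTAGAC, the palindrome that SMAD proteins are known to bind. RefSeq promoter windows (GRCm38.p6, 250 bases before to 50 after a start) were at hand for 6 members (Smad1, Smad3, Smad5, Smad6, Smad9 and Ski), in 8 windows. The palindrome, which reads the same on both strands, was in 70 of 32851 windows of all genes, or 0.213%. In Smad6, on the minus strand, it spans the transcript start at position 64022059 of chromosome 9, with 4 bases before it and 4 from it on. The window from 250 bases before the start to the end of the palindrome is given 5′ to 3′ at chr9:64022056-64022309, with the palindrome in capitals.
Smad6: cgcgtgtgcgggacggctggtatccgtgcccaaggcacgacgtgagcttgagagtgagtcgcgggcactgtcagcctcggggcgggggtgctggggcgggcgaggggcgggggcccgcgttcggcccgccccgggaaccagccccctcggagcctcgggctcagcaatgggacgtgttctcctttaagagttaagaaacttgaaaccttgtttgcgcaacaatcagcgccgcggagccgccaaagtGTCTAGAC

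The shorter SMAD box CAGAC, searched on both strands, was in the window of Smad5 alone among these 6 members and in 49.6% of all windows. The palindrome does not itself hold these letters, though the motifs can overlap in part. The GC-rich BMP box GGCGCC was in the windows of Ski, Smad5 and Smad9 and in 11.9% of all windows. None of the 3 members with either box was called, and a match of letters is no more than that. The fallen members Smad7 and Skil were not among the 6.

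Skil was at 8.19, 9.65 and 9.75 FPKM in control replicates 1 to 3, from 1248, 1560 and 1542 reads. In the shGDF11 replicates it was at 6.84, 6.61 and 6.64 FPKM, from 1089, 1050 and 1038 reads. The shGDF11 values lay close together, with a coefficient of variation of 1.83% against 9.49% in control, and all lay below the lowest control. The mean fell to 72.8% of control, a log2 fold change of -0.43 ± 0.0815 (SE, 95% interval -0.62 to -0.23, limma adjusted p = 0.00985). Skil was lowest in control replicate 1, the opposite of Smad7, and without that library the change was -0.50 (limma adjusted p = 0.00284). After rescaling to TPM, which sets every library to the same summed level, it was -0.36 and no longer called (limma adjusted p = 0.0639). That sum was 351657 FPKM in control replicate 1 and 304770 to 316233 FPKM in the other 5 libraries. It held 40996 FPKM of Gm23935, a 57-base miRNA gene, in that library, against 1065 to 9686 FPKM elsewhere. With Gm23935 left out of the sum, an alternative added after the data were seen, Skil was called (log2 fold change -0.42, limma adjusted p = 0.0118). Skil lies on chromosome 3 at 31095058 to 31122577, plus strand.

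Ski, the founding member of the co-repressors, was the most abundant of the 10 genes per length. It was at 26.3, 27.2 and 27.0 FPKM in control and at 27.6, 26.4 and 28.4 FPKM in shGDF11, and the groups overlapped. The log2 fold change was 0.03 (95% interval -0.10 to 0.16, limma adjusted p = 0.675), an interval that does not reach the estimate for Skil. The ratio of Skil to Ski was 0.312, 0.355 and 0.362 in control and 0.248, 0.250 and 0.234 in shGDF11. Its mean was 0.343 ± 0.0271 and 0.244 ± 0.00891 (SD, n = 3 each), without overlap, as for Skil alone.

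The receptor-regulated SMADs of the TGF-beta, activin and GDF11 branch were not called. Smad2 was at 11.9, 12.4 and 13.3 FPKM in control and 14.2, 13.2 and 13.5 FPKM in shGDF11, and the groups overlapped by control replicate 3 alone. Its log2 fold change was 0.11 (95% interval -0.04 to 0.27, limma adjusted p = 0.249). Smad3 was at 11.4, 11.5 and 10.6 FPKM in control and 12.8, 11.5 and 12.7 FPKM in shGDF11. Its groups were separated only by the gap between 11.48 and 11.51 FPKM, and its log2 fold change was 0.14 (95% interval -0.02 to 0.30, limma adjusted p = 0.178). Both intervals reach further above 0 than below it. The Smad2 model in the deposited table is 3549 bases long and ends at 76305731 on chromosome 18, whereas the GENCODE M21 model has 8781 exon bases and ends at 76310963. The level and the fold change of Smad2 rest on the shorter model, and reads on the other exon bases were not analysed here.

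The BMP-branch SMADs were not called either. Smad1 was at 6.15, 6.49 and 6.66 FPKM in control and 5.81, 6.04 and 5.66 FPKM in shGDF11, every shGDF11 value below every control. Its log2 fold change was -0.13 (95% interval -0.28 to 0.03, limma adjusted p = 0.190). Smad9 was the least abundant member, at 1.34, 1.33 and 1.26 FPKM in control and 1.16, 1.09 and 1.17 FPKM in shGDF11, again without overlap. Its reads numbered 96 to 119 per library. The log2 fold change was -0.14 (95% interval -0.40 to 0.11, limma adjusted p = 0.361). Its coefficient of variation was 3.49% in control and 3.54% in shGDF11. Without the variance trend of the model the limma adjusted p was 0.151. What set the width of the interval was not tested. Smad5 was at 11.1, 10.8 and 11.0 FPKM in control and 10.9, 10.7 and 10.0 FPKM in shGDF11, and the groups overlapped (log2 fold change -0.06, 95% interval -0.20 to 0.08, limma adjusted p = 0.523). Its sign turned after rescaling to TPM. Of the Smad5 exon bases, 1.35% are shared with Gm27301, a short RNA gene listed at 0 in all 6 libraries.

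Smad4, the common partner of both branches, was at 18.7, 22.2 and 19.5 FPKM in control and 19.7, 18.7 and 19.7 FPKM in shGDF11. The shGDF11 values lay wholly inside the control range. Its log2 fold change was -0.05 (95% interval -0.23 to 0.13, limma adjusted p = 0.651), with the opposite sign after rescaling to TPM and without control replicate 2.

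**Figure D2:**
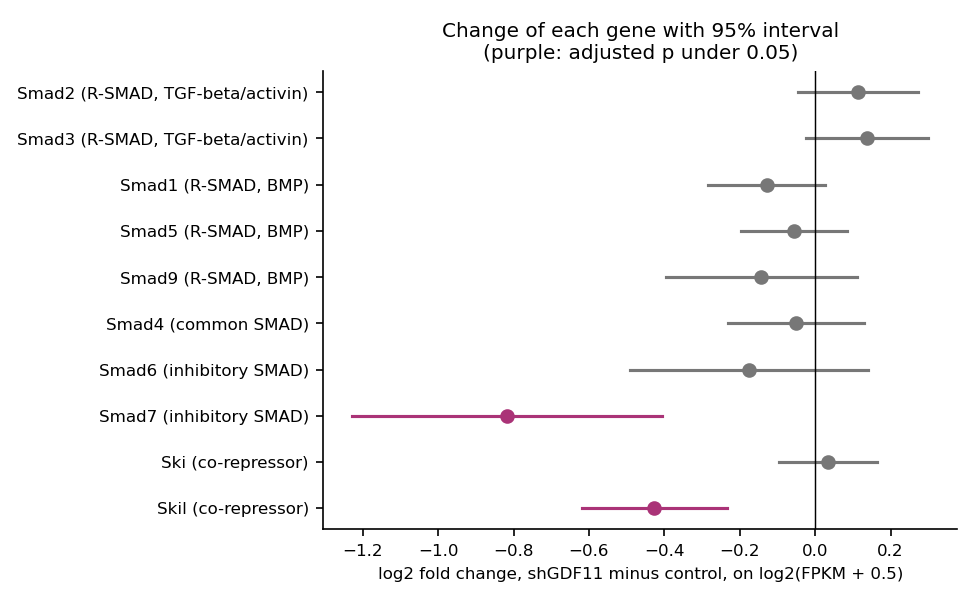
Log2 fold change of each gene, shGDF11 minus control on log2(FPKM + 0.5), as a point with its 95% interval as a line. The intervals of Smad7 (-1.23 to -0.41) and Skil (-0.62 to -0.23) lie below 0, and the other 8 cross it.

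Put in order of level per length, the control cells held Ski (26.8 ± 0.479 FPKM, SD, n = 3), then Smad4 (20.1 ± 1.83), then Smad2 (12.5 ± 0.721). The place of Smad2 rests on its shorter model, and its place on the longer model was not tested. Smad3, Smad5, Smad6, Smad7 and Skil followed at 11.2, 10.9, 10.8, 9.65 and 9.20 FPKM, each neighbour overlapping the next. Smad1 (6.43 ± 0.259 FPKM) and Smad9 (1.31 ± 0.0456 FPKM) stood below all of these. In the shGDF11 cells the order was Ski, Smad4, Smad2, Smad3, Smad5, Smad6, Skil, Smad1, Smad7 and Smad9. There only Smad5 and Smad6, and Smad1 and Smad7, overlapped as neighbours. Smad7 moved from rank 7 to rank 9, at 5.19 ± 0.733 FPKM beside 5.84 ± 0.188 FPKM for Smad1, while the first 6 places kept their order.

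The makeup of the SMAD family differed between the groups in the shares of the inhibitors and of Smad2 and Smad3. The 8 SMAD genes summed to 82.9 ± 3.76 FPKM in control and 77.4 ± 3.07 FPKM in shGDF11 (SD, n = 3 each), and these sums overlapped. The inhibitors Smad6 and Smad7 together made up 28.5%, 24.3% and 20.7% of the sum in control replicates 1 to 3 and 19.3%, 17.3% and 19.9% in shGDF11. Smad2 and Smad3 together, with Smad2 on its shorter model, made up 28.6 ± 1.62% in control and 33.5 ± 0.230% in shGDF11. Both shares differed without overlap. The levels of 45.8% of all genes tested also did not overlap, and Smad7 enters both shares as part of the sum. The shares of Smad4 (24.3% and 25.0%) and of Smad1, Smad5 and Smad9 together (22.6% in each group) overlapped. Shares of one sum are not independent, since a fall in one member raises the shares of the others.

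The ratio of the inhibitor Smad7 to Smad2 and Smad3 together was 0.525, 0.383 and 0.318 in control and 0.194, 0.180 and 0.226 in shGDF11. Its mean was 0.408 ± 0.106 in control and 0.200 ± 0.0236 in shGDF11 (SD, n = 3 each). Every control lay above every shGDF11 library, as for Smad7 alone. The balance between the branches, Smad2 and Smad3 over Smad1, Smad5 and Smad9, was 1.26, 1.28 and 1.27 in control and 1.52, 1.39 and 1.55 in shGDF11. The means were 1.27 ± 0.0121 and 1.48 ± 0.0872, without overlap, although none of its 5 genes was called alone. Levels of 45.8% of all genes tested did not overlap either, and the ratios were not tested. Smad2 enters these ratios on its shorter model.

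**Figure D3:**
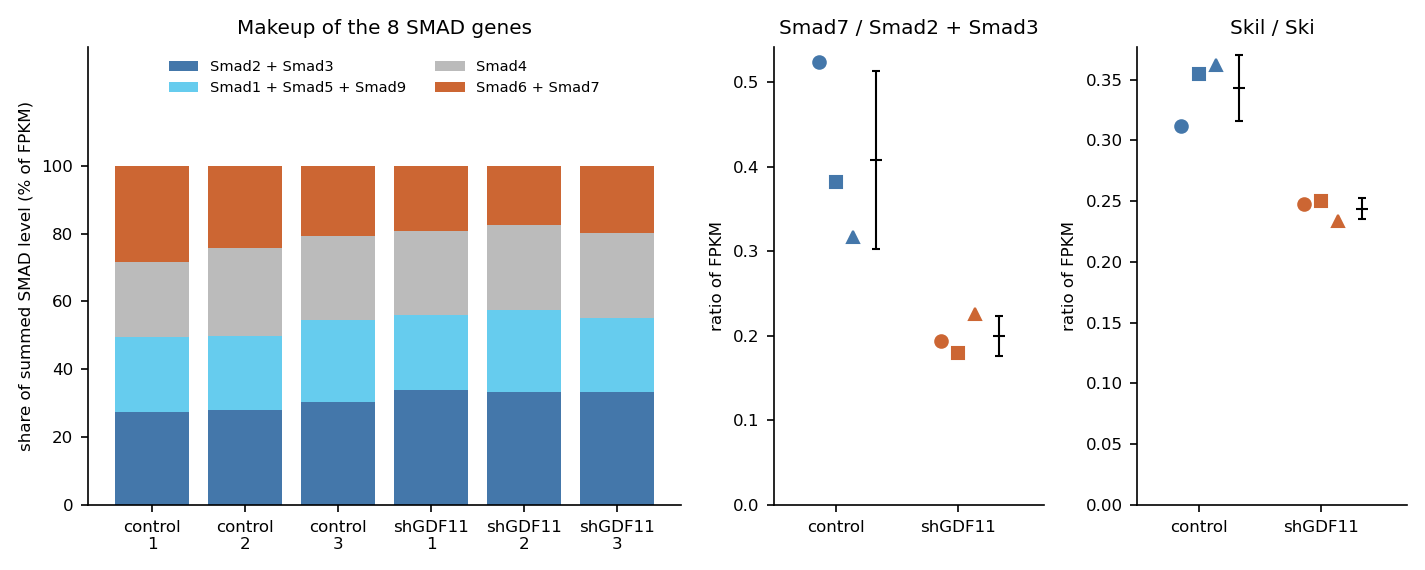
Left, the share of the summed FPKM of the 8 SMAD genes held by each role in the 6 libraries; middle and right, the ratios of Smad7 to Smad2 plus Smad3 and of Skil to Ski by library, with mean and SD in black. The share of Smad6 plus Smad7 is 17.3% to 19.9% in shGDF11 and 20.7% to 28.5% in control, and both ratios are lower in every shGDF11 library.

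The called members, Smad7 and Skil, lie on different chromosomes, so no members that are neighbours could share a call. Smad3 (63646767 to 63757994) and Smad6 (63953076 to 64022059) lie on the minus strand of chromosome 9, 195.1 kb apart, and neither was called, nor was either of the 2 tested genes between them, Gm18541 and Gm36033. Smad7 and Smad2 lie 845.6 kb apart on the plus strand of chromosome 18, where Smad7 fell and Smad2 did not pass the test. Of 3 tested genes between them, Ctif, which acts in the first round of translation, was higher (4.34 to 5.76 FPKM, log2 fold change 0.37, limma adjusted p = 0.0440), a call lost in 9 of 23 alternatives, among them the omission of each library but control replicate 2. Zbtb7c and Gm10532 were not called. The genes between members were named by position, outside the rule for named genes, as was Gm20544.

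The genes whose profile over the 6 libraries was most like that of Smad7 were Nlgn2, a synaptic adhesion gene, Oplah, which encodes 5-oxoprolinase, and Emc10, a subunit of the membrane protein insertion complex. Likeness was the root mean square difference of the centred log2(FPKM + 0.5) values, over 12858 protein-coding genes, and was 0.0644, 0.0676 and 0.0680 for these. Like Smad7, all 3 were highest in control replicate 1 and lowest in shGDF11 replicate 2, with Emc10 at 65.6, 53.8 and 42.0 FPKM in control and 30.2, 24.6 and 30.5 FPKM in shGDF11. For Skil the nearest were Lims1, a focal adhesion adaptor (0.0202), Atg2b, an autophagy gene (0.0292), and Agps, an enzyme of ether lipid synthesis (0.0363). Lims1 was at 36.5, 41.6 and 43.9 FPKM in control and 30.6, 29.2 and 29.4 FPKM in shGDF11, lowest in control replicate 1 among the controls as Skil was. The 6 genes are a description of these libraries, chosen by likeness to a called member, and carry no test.

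The proteins that act on SMADs were followed in lists of genes. Of 20 SMAD ubiquitin ligases, deubiquitylases and phosphatases, all tested, 2 were higher and 1 lower, or 15% called against 27.6% of all genes, and their median log2 fold change was 0.15 (all genes 0.01). Smurf1, a ligase that Smad7 brings to the receptor, fell from 11.6 ± 0.532 to 9.63 ± 0.502 FPKM (log2 fold change -0.26, limma adjusted p = 0.0306), a call lost in 8 of 23 alternatives, among them TPM and the omission of control replicate 1 or 2 or of any shGDF11 library (limma adjusted p up to 0.127). Its relative Smurf2 was at 13.3, 14.5 and 14.5 FPKM in control and 11.6, 12.3 and 12.7 FPKM in shGDF11 and missed the threshold (limma adjusted p = 0.0623). The phosphatase gene Ctdspl rose from a mean of 4.65 to 6.65 FPKM (0.48, limma adjusted p = 0.00902), and Wwp2, another ligase, rose from 4.21 ± 0.136 to 5.17 ± 0.266 FPKM (0.27, limma adjusted p = 0.0328). The call of Wwp2 was lost without any 1 of the 6 libraries (limma adjusted p up to 0.124). It was also lost with no filter on low values and with a replicate block. Ctdspl kept its call in all 23 alternatives. Rnf111 (Arkadia), the ligase that degrades Smad7, Ski and Skil proteins, was not called (limma adjusted p = 0.446). Smurf2 and Rnf111 were picked for their known action on members, after their values were seen.

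Of 18 SMAD anchors and receptor-level regulators, 17 were tested, 5 were lower and none was higher (29.4% called against 27.6% of all genes, median -0.12). Without shGDF11 replicate 2, 2 were lower. Pmepa1, which keeps Smad2 and Smad3 from the receptor and is itself a target gene, fell from 29.0 ± 1.90 to 20.1 ± 0.635 FPKM (log2 fold change -0.52, limma adjusted p = 0.00223). Fkbp1a, which holds type I receptors inactive, fell from 101.7 ± 5.18 to 76.6 ± 2.69 FPKM (-0.41, limma adjusted p = 0.00404). Tob1, an antiproliferative gene whose product binds BMP SMADs, fell from 54.4 ± 3.94 to 42.7 ± 0.779 FPKM (-0.34, limma adjusted p = 0.0107), and missed the threshold without shGDF11 replicate 2 (limma adjusted p = 0.0503). The other 2 were Lemd3, which binds SMADs at the nuclear envelope, and Dab2, a receptor adaptor, named here to complete the count after their values were seen. Dab2 lost its call in 5 alternatives and Lemd3 in 4, among them TPM and the omission of control replicate 2 or of shGDF11 replicate 2 or 3.

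Of 28 transcriptional partners of SMAD and SKI proteins, 23 were tested, 4 were higher and 2 lower (26.1% called against 27.6% of all genes, median 0.10). Kat2b (PCAF), an acetyltransferase, rose from 14.5 ± 1.78 to 33.9 ± 1.23 FPKM (log2 fold change 1.21, limma adjusted p = 0.000448). Hipk2, a kinase known to bind SKI, rose from 2.78 ± 0.415 to 6.02 ± 1.01 FPKM (0.99, limma adjusted p = 0.00339). Zeb1 rose from 5.96 ± 0.837 to 8.27 ± 0.395 FPKM (0.45, limma adjusted p = 0.0211), and Snw1, which binds SKI, was the fourth, named after its values were seen. Zeb1 lost its call without shGDF11 replicate 2 or 3 (limma adjusted p up to 0.0790), and Snw1 in 7 of 23 alternatives, among them the omission of each library but control replicate 1. The lower pair, named likewise, was Runx1 and Tgif1, a repressor that binds Smad2. Runx1 lost its call in 8 of 22 alternatives, among them TPM and the omission of each library but control replicate 1 (limma adjusted p up to 0.0880). Tgif1 lost its call in 6 of 22, among them TPM and the omission of control replicate 1 or 3 or of shGDF11 replicate 1 or 2 (limma adjusted p up to 0.0907).

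Of 12 type I and II receptor genes, 10 were tested, 1 was higher and 2 lower (30% called against 27.6% of all genes, median -0.13). Acvrl1, a type I receptor known from endothelial cells, fell from 6.90 ± 0.751 to 4.21 ± 0.704 FPKM (log2 fold change -0.66, limma adjusted p = 0.0108). Bmpr1a fell from 41.6 ± 4.89 to 31.5 ± 0.896 FPKM (-0.39, limma adjusted p = 0.0196), a call lost after rescaling to TPM and without any 1 library but control replicate 1 (limma adjusted p up to 0.116). Tgfbr2 rose from 7.45 ± 0.741 to 9.67 ± 0.405 FPKM (0.36, limma adjusted p = 0.0216), a call lost without any 1 of the shGDF11 libraries (limma adjusted p up to 0.0801). Acvrl1 was called in all 23 alternatives.

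Genes known to respond to Smad2 and Smad3 were mostly lower: of 25, all tested, 14 were lower and 3 higher (68% called, median -0.35, against 27.6% and 0.01 for all genes). Acta2, smooth muscle actin, fell from 993 ± 34.2 to 370.3 ± 3.57 FPKM (log2 fold change -1.42, limma adjusted p = 0.000116). Ctgf, a matricellular gene, fell from 87.7 ± 4.72 to 37.7 ± 1.14 FPKM (-1.21, limma adjusted p = 0.000136). The 3 higher, named after their values were seen, were Klf10 (10.7 to 18.1 FPKM, 0.73, limma adjusted p = 0.000467) and the fibrillar collagens Col3a1 and Col1a2. Pmepa1 and Tgif1 are in this list as well. Earlier results of these data were known when it was chosen, so it is not independent evidence of its direction.

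Of 20 genes known to respond to Smad1 and Smad5, a list that holds Smad6 and Smad7 themselves, 4 were higher and 6 lower, Smad7 among them (50% called against 27.6% of all genes, median -0.12). Id2 rose from 11.0 ± 1.49 to 22.8 ± 0.361 FPKM (log2 fold change 1.03, limma adjusted p = 0.000891) and Hey2 from 2.56 ± 0.380 to 5.27 ± 0.390 FPKM (0.92, limma adjusted p = 0.00176). Grem1, a BMP antagonist, fell from 1.55 ± 0.0396 to 0.670 ± 0.0576 FPKM (-0.81, limma adjusted p = 0.00343). Id1, a classical BMP target and relative of Id2, fell from a mean of 17.7 to 12.8 FPKM (-0.45, limma adjusted p = 0.00731) and was picked after its values were seen.

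**Figure D4:**
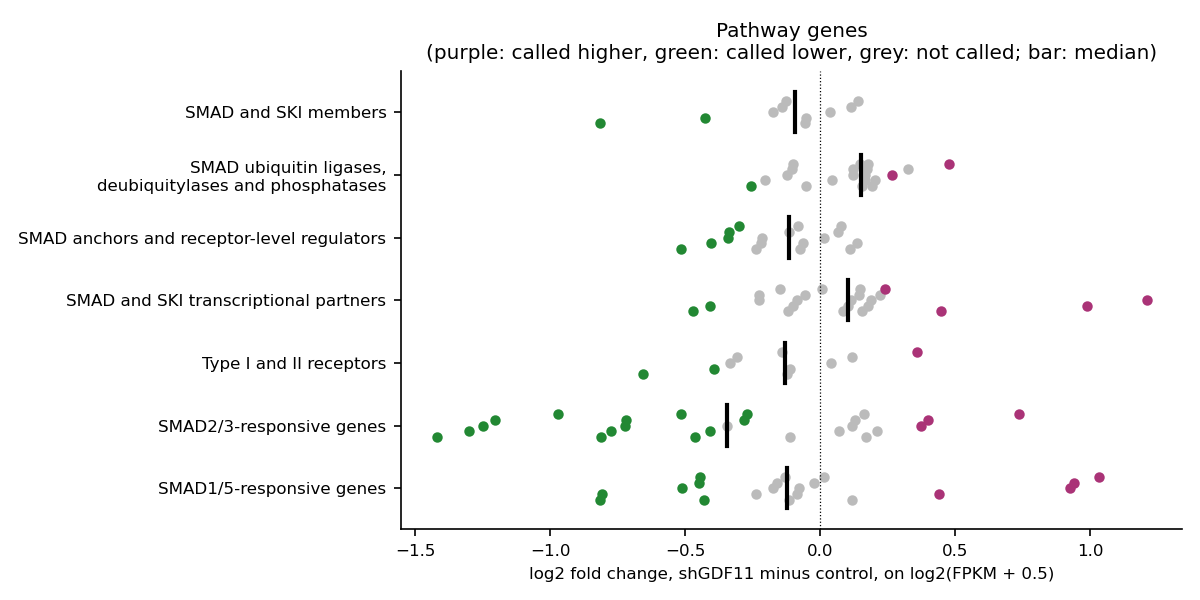
Log2 fold change, shGDF11 minus control on log2(FPKM + 0.5), of each tested gene (points) in the 10 members and in 6 lists of genes around them, with each list's median as a bar and genes called higher in purple and lower in green. The genes that respond to Smad2 and Smad3 have a median of -0.35, with 14 of 25 called lower.

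Markers of several cell types moved between the same groups as Smad7, Skil and these lists. The share called was 80% of endothelial, 62.5% of epicardial, 60% of cardiomyocyte, 50% of smooth muscle and 50% of macrophage markers tested. For fibroblast markers it was 30%, near the 27.6% of all genes tested (14.4% higher, 13.1% lower). Of 10 smooth muscle and pericyte markers 5 were lower and none higher. Their summed level was 1267 to 1392 FPKM in control and 638.6 to 658.7 FPKM in shGDF11. Acta2 made up most of that sum and of its fall, at 956.4 to 1024 FPKM in control and 367.2 to 374.2 FPKM in shGDF11. Acta2 and Tagln belong to this list and to the Smad2 and Smad3 list. Tagln was low, at 0.672 to 1.18 FPKM in control and 0.2755 to 0.522 FPKM in shGDF11. It was called in 12 of 21 alternatives (limma adjusted p up to 0.116). Of 10 endothelial markers 8 were lower and none higher (summed 102.5 to 107.7 FPKM against 73.2 to 75.9 FPKM), and of 8 macrophage markers tested 4 were lower (160.6 to 184.1 FPKM against 124.7 to 136.5 FPKM). Of 10 fibroblast markers 3 were higher (313.3 to 370.1 FPKM against 396.7 to 413.5 FPKM), 2 of which, Col3a1 and Col1a2, are also in the Smad2 and Smad3 list. Of 8 epicardial markers 3 were higher and 2 lower (62.9 to 68.4 FPKM against 59.9 to 61.6 FPKM). The labelled cell type was present: the 10 cardiomyocyte markers summed to 8156 to 8354 FPKM in control and 6404 to 6626 FPKM in shGDF11, with 5 lower and 1 higher. None of the 8 erythroid markers passed the filter, with summed levels under 1 FPKM. No marker was listed at 0 in all libraries, and the part of any of these cell types in the fall of Smad7 or Skil was not tested.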

How the data were processed

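The authors deposited FPKM values (reads scaled by gene length and library depth) for 54532 genes in 6 libraries, with each gene's name, position and length, per the file headers. Of tools, HISAT2 2.0.5, featureCounts 1.5.0-p3 and CASAVA 1.8 appear in the submitters' processing notes, and of builds mm10 and GRCm38, without role or order. Strand setting and annotation release: not given in the sources used here.

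FPKM times gene length gave whole reads, within 0.05 of a read, for 100% of positive values. For a 1 kb gene, a floor of 3 reads is 0.18 to 0.191 FPKM. Depth covers counting error only.

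Samples were grouped by their labels. Genes averaging 0.5 FPKM or more entered limma 3.58.1 in R 4.3.3 as log2(FPKM + 0.5) (eBayes with a variance trend, two-sided), with Benjamini-Hochberg adjustment over all 15418 genes tested and calls under 0.05. The pseudocount understates changes of low genes. The members and the 6 pathway and 7 marker lists (189 symbols, all found) were chosen with earlier results of these data known. The named genes were the members, Gdf11, up to 3 genes of each pathway list with the smallest p, the 3 nearest profiles of each called member, and genes overlapping a member. Other genes were chosen after their values were seen or by position beside a member. A gene that this rule names in the Smad2 and Smad3 list is not reported here. Coordinates of 9 members matched GENCODE M21 on GRCm38. Coding identity came from alignment of the longest coding sequences. The 23 alternatives were other pseudocounts, filters, scalings, variance models, limma voom on the recovered reads, a replicate block and leaving out single libraries. Removing length and GC trends together, and TPM without Gm23935, were chosen after seeing the data.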

Additional observations from a re-analysis of the deposited data

How the results depend on the processing

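Under 23 alternatives Smad7 was lower in each (log2 fold change -0.97 to -0.64) and was called in 22, and Skil was lower in each (-0.55 to -0.36) and was called in 22. The exceptions were Smad7 without shGDF11 replicate 2 and Skil after rescaling to TPM. The other 8 members were called in none, and Smad9 was not tested at a filter of 5 FPKM. Rescaling to TPM, which moved the median of all genes to 0.09 on the log2 scale, left 1 member lower and gave 2577 genes higher and 1315 lower, against 2227 and 2026. It also left 0 of the ubiquitin and phosphatase list, 3 anchors, 0 transcriptional partners and 1 receptor lower. In the Smad2 and Smad3 list 10 genes were then lower, against 14. A filter at 5 FPKM left 1474 genes called higher. With a replicate block, Smad7 (limma adjusted p = 0.0293) and Skil (0.0317) were called, members lower stayed at 2, the ubiquitin and phosphatase list had 1 higher and 0 lower, and 1 partner was lower. Same-numbered libraries did not deviate together (correlations 0.015, 0.015 and -0.052 across genes), so the numbers were not taken as pairs, and not every library correlated best with its own number.

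Omitting 1 library at a time gave 1 to 2 members lower, 2328 to 4233 genes called, 1256 to 2241 higher and 1072 to 1992 lower. The fewest came without shGDF11 replicate 2. The ubiquitin and phosphatase list then had 1 higher and 0 to 1 lower, anchors 2 to 6 lower, partners 2 to 4 higher and 0 to 1 lower, and receptors 0 to 1 higher and 1 to 3 lower. The Smad1 and Smad5 list had 2 to 4 higher, and the Smad2 and Smad3 list 11 to 13 lower. For genes named from the lists, calls lost are given beside their values, some as a count with examples. The causes were not tested, and fewer libraries enter these fits. Smad9 had the fewest reads of the members, with 96 to 119 per library.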
